A study of Homo sapiens with 4 samples.

Results

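The oxidative phosphorylation subunits comprised 109 protein-coding genes of 36198 genes listed in any library, 96 encoded in the nucleus and 13 on the mitochondrial chromosome. They were taken as every protein-coding gene of the mitochondrial chromosome, together with every protein-coding gene whose name starts with one of the usual stems for subunits of complexes I to V (NDUFA, NDUFB, NDUFC, NDUFS, NDUFV, SDH, UQCR, COX4 to COX8 and ATP5). The name stems also took in 12 assembly, supercomplex or coupling factors, such as NDUFAF2 and SDHAF1, 3 intronless copies (UQCRHL, ATP5EP2 and ATP5L2) and 1 read-through gene. The rule used names and positions and no measured value, but it was chosen with earlier results of these data known. Of the 109, 101 passed the filter on low counts and were tested, 88 nuclear and all 13 mitochondrial. The 8 that did not pass were NDUFA7, NDUFA4L2, COX6B2, COX7A1, COX7B2, COX8C, ATP5J2-PTCD1 and ATP5L2.

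The cells were U87MG, an established human glioblastoma line. Polyadenylated RNA was sequenced in 4 libraries: 2 from brain invasive clones and 2 from poorly invasive controls. Parental cells had been placed on organotypic slices of brain for 1 week, in a neural stem cell medium that held FGF and EGF. Both kinds of population were recovered from such cultures and grown for another 3 to 5 days. Invasive clone 1 was handled together with control 1, and invasive clone 2 with control 2, so each pair is a comparison within itself. Each population was represented by 1 library, and with 2 pairs the model had 1 residual degree of freedom, supplemented by the spread shared across genes.

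Complexes I to IV of the inner mitochondrial membrane pass electrons from NADH and succinate to oxygen, and complexes I, III and IV pump protons as they do so. Complex V, the ATP synthase, lets the protons back and makes ATP. Complexes I, III, IV and V are built from the products of both genomes, while complex II is wholly nuclear-encoded. The mitochondrial genome contributes membrane-embedded subunits and is transcribed from each of its strands as long precursors that are later cut and polyadenylated.

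The 4 libraries held between 13829871 and 17817756 counts. The line's mesenchymal markers VIM and CD44 were abundant in all 4, while GFAP, SOX2 and CDKN2A had between 0 and 4 counts in each. Of the markers of other cell types, all 3 for microglia, both for astrocytes, MOG for oligodendrocytes and CLDN5 for endothelium had 3 counts or fewer in every library. The oligodendrocyte marker MBP had 5 and 3 counts in the invasive clones and 19 and 6 in the controls, and the endothelial markers PECAM1 and VWF had between 4 and 17 counts. The 4 neuronal markers summed to 41.5 and 28.1 CPM (counts over the library total, times 1000000) in the invasive clones and 34.2 and 42.5 CPM in the controls, nearly all from SNAP25, with RBFOX3 and STMN2 at or near 0.

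No oxidative phosphorylation gene passed the test of invasive clones against controls. In edgeR's quasi-likelihood fit, blocked by pair, 0 of 101 members had an adjusted p under 0.05, against 0.274% of the 14231 genes tested. The smallest adjusted p (edgeR, Benjamini-Hochberg over all genes tested) was 0.191, for SDHA. At an unadjusted p under 0.05, 8 members were lower in the invasive clones (8.41% of all genes were) and 1 was higher (9.82% of all genes were). DESeq2 with the same block also called 0 members, with 0 at an unadjusted p under 0.05. The fitted differences were small: no member differed by more than 0.5 on the log2 scale, a size that 14.7% of all genes tested exceeded. The median standard error of the log2 fold change was 0.10 over the members and 0.14 over all genes tested. Members and all genes are therefore not compared at equal precision.

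Direction was also counted pair by pair, without a test. Of the 101 tested members, 30 had lower CPM in the invasive clone in both pairs, and all 30 were nuclear; 29.3% of all genes did so. Another 29 members were higher in the invasive clone in both pairs, 22 nuclear and 7 mitochondrial, against 36.0% of all genes. In 18 members both invasive clones lay below both controls, all 18 nuclear (19.7% of all genes), and in 19 members both lay above, 14 nuclear and 5 mitochondrial (23.7% of all genes). Over the 88 nuclear members alone, 34.1% were lower and 25.0% higher in both pairs, and 20.5% lay below and 15.9% above both controls. The median log2 fold change was 0.09 over the 13 mitochondrial members and -0.04 over the 88 nuclear members, beside 0.01 over all genes tested. With TMM effective library sizes in place of library totals, a count added after the data were seen, 36 nuclear members, 40.9%, were lower in both pairs (31.9% of all genes) and 17, 19.3%, higher in both (33.3% of all genes), and 6 mitochondrial members were higher in both.

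**Figure D1:**
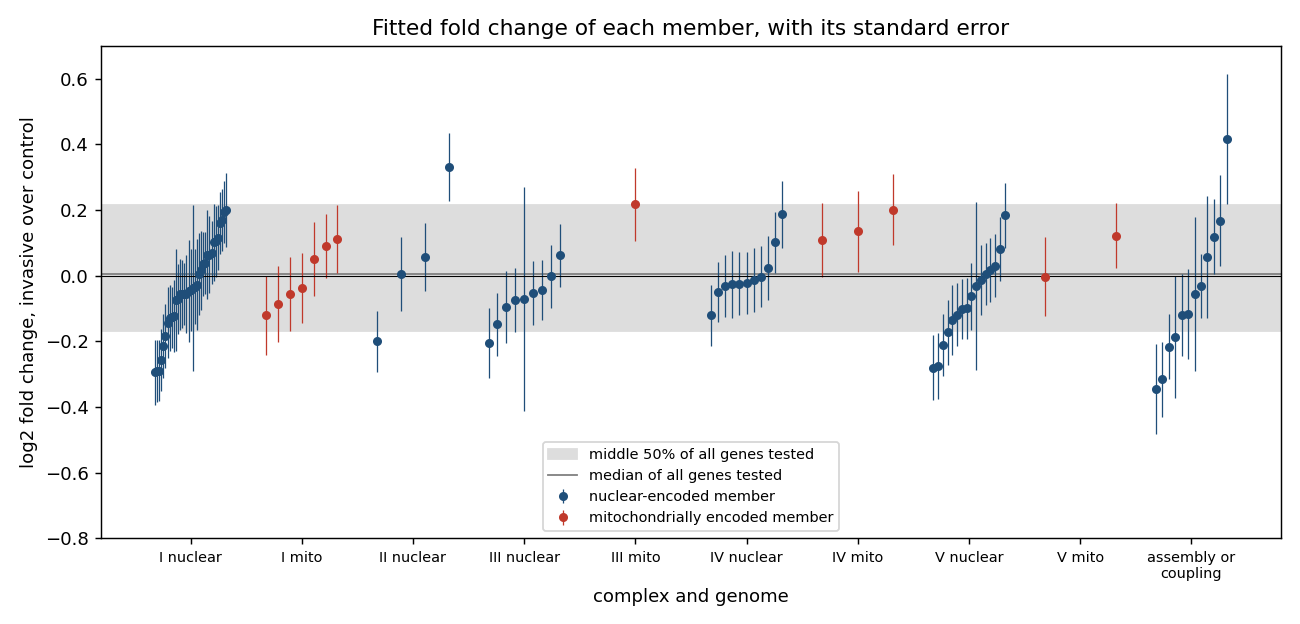
Log2 fold change of each tested member, invasive over control, fitted over both pairs, with its standard error; members are ordered by value within each complex and genome, the grey band holds the middle 50% of all genes tested, and NDUFV2, with 9 to 23 counts a library, is not drawn. SDHA and SDHAF1 lie furthest above the band, and the complex III and IV mitochondrial genes all lie above 0; without control 2, MT-CO1 and MT-CO2 do not.

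The summed mitochondrial messages made up 2.78% and 2.74% of all counts in invasive clones 1 and 2, and 2.72% and 2.42% in controls 1 and 2. Both invasive clones lay above both controls, but by 2.36% in pair 1 and by 12.9% in pair 2. In pair 1 the difference on the log2 scale was 0.03 with library totals and -0.0002 with TMM sizes, so its direction depended on the scaling. The summed nuclear members were 8966 and 8539 CPM in the invasive clones, against 9060 and 8916 CPM in the controls. The difference was -1.03% in pair 1 and -4.23% in pair 2.

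The ratio of mitochondrial to nuclear summed CPM is not changed by a single scaling factor per library, such as the library total or the TMM size. It was 3.10 and 3.20 in invasive clones 1 and 2, against 3.00 and 2.72 in controls 1 and 2. The groups did not overlap, and it differed by 0.05 (pair 1) and 0.24 (pair 2) on the log2 scale, with a mean of 0.14 and an SD of 0.13 over the 2 pairs. No permutation test could pass here: with labels exchanged within pairs, as the design has them, the smallest exact 2-sided p is 0.5, and with 2 libraries against 2 regardless of pair it is 0.333. On the authors' normalized scores, over the 97 members listed for both pairs, the mean log2 difference of the ratio was 0.05 and that of the mitochondrial sum was 0.03, in place of 0.14 and 0.10. Control 2 was the lowest of the 4; without it the mean log2 difference was 0.07, and the median log2 fold change of the mitochondrial members turned to -0.02. These are bulk libraries, so a different share of cells, more transcripts per cell and more mitochondria per cell cannot be told apart.

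Of the neighbouring mitochondrial genes, 3 pairs overlap, which bears on how reads are assigned. MT-ATP8 and MT-ATP6, the membrane subunits of complex V, share 46 bases at chrMT:8527-8572 (GRCh38, plus strand), which is 22.2% of MT-ATP8. The shared stretch, from the GENCODE transcript sequences, is shown because reads lying wholly in it belong to both genes:
MT-ATP8 and MT-ATP6: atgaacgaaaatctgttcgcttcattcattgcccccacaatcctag
MT-ND4L and MT-ND4 share 7 bases and MT-ATP6 and MT-CO3 share 1. MT-ATP6 also has a near-identical nuclear copy, MTATP6P1 on chromosome 1, with between 2992 and 4700 counts. MT-ND2 has a copy on that chromosome too, MTND2P28, with between 510 and 721 counts. The counts of genes with shared bases or copies are uncertain to that extent. Copies of the other mitochondrial genes were not examined.

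Compared per kilobase of transcript, the complex IV messages were the most abundant and the single light-strand gene the least. MT-CO3 averaged 4749 CPM per kilobase over the 4 libraries, MT-CO2 4163, MT-CO1 3637 and MT-ND4 3554, and the ranges of neighbours in this order overlapped. MT-ATP6 (2551) and MT-ND4L (2127) followed, with ranges that overlapped each other but not their neighbours on the other side. MT-ATP6 overlaps MT-ATP8, and MT-ND4L overlaps MT-ND4, so the places of these genes are uncertain. The order is one of counts per gene and does not give the levels of separate transcripts. MT-ND1, MT-CYB, MT-ATP8 and MT-ND2 lay between 1711 and 1253 CPM per kilobase, each overlapping the next, and MT-ND5 (926) and MT-ND3 (889) below them. MT-ND6, the one protein-coding gene on the light strand, averaged 221 CPM per kilobase, 21.4 times less than MT-CO3. The sources used here do not give the strand setting of the counting, so reads of MT-ND6 and of heavy-strand RNA opposite it cannot be told apart.

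**Figure D2:**
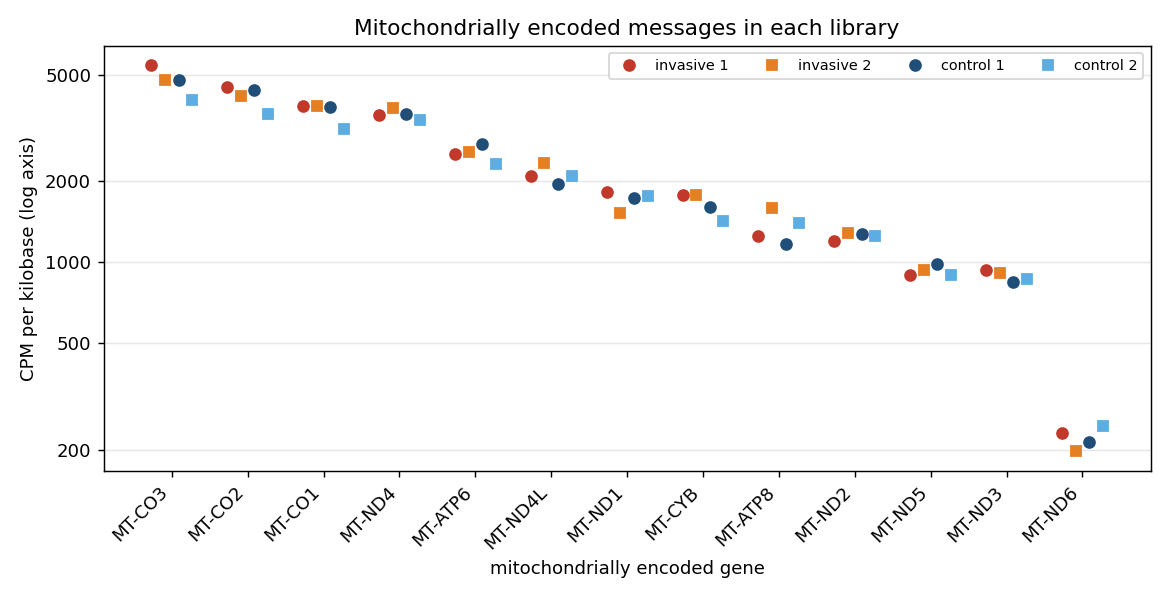
CPM per kilobase of transcript (log axis) for the 13 mitochondrially encoded genes in each of the 4 libraries, ordered by mean level, invasive clones left of controls. The order runs from MT-CO3 (mean 4749) to MT-ND6 (mean 221), and control 2 is the lowest library for MT-CO3, MT-CO2, MT-CO1, MT-ND4, MT-CYB and MT-ATP6.

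MT-CYB of complex III and MT-CO3 of complex IV had the highest fitted fold changes of the mitochondrial genes over all 4 libraries, but not without control 2 or invasive clone 1. MT-ATP8 was then the highest, at 0.25 without control 2, where MT-CYB was 0.12 and MT-CO3 0.07, and at 0.28 without invasive clone 1, where MT-CYB was 0.21 and MT-CO3 0.10. MT-ATP6, which shares bases with MT-ATP8, was -0.14 without control 2 and -0.006 without invasive clone 1. The place of MT-ATP8 is thus uncertain, as reads in the shared stretch belong to both genes. MT-CYB, the cytochrome b of complex III (chrMT), had 2025 and 2032 CPM in invasive clones 1 and 2, against 1829 and 1623 CPM in controls 1 and 2. Both invasive clones lay above both controls. The log2 fold change was 0.22 ± 0.11 (SE), with an adjusted p of 0.350 (edgeR), the highest of the 13. MT-CO3, a core subunit of cytochrome c oxidase, had 4250 and 3757 CPM in the invasive clones and 3737 and 3150 CPM in the controls. The lower invasive clone exceeded the higher control by a small margin, and the log2 fold change was 0.20 ± 0.11 (adjusted p 0.366, edgeR). MT-CO1, the catalytic subunit that binds the oxygen-reducing heme and copper centre, had 5906 and 5882 CPM in the invasive clones and 5832 and 4815 CPM in the controls. The other 3 libraries were alike and control 2 was low. Without control 2 the fitted log2 fold change of MT-CO1 was -0.02 in place of 0.13. MT-CO2, which accepts electrons from cytochrome c, had 3085 and 2847 CPM in the invasive clones, overlapping the 3008 and 2450 CPM of the controls.

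The 7 mitochondrial subunits of complex I, all core parts of its proton-pumping membrane arm, went in both directions. MT-ND3 had 323 and 316 CPM in the invasive clones and 293 and 299 CPM in the controls, and MT-ND4L 624 and 698 against 583 and 623. These were the only members among the 7 with both invasive clones above both controls, MT-ND4L by less than 1 CPM. MT-ND4 (4876 and 5154 CPM in the invasive clones, 4899 and 4663 in the controls), MT-ND2 and MT-ND5 were below the control in pair 1 and above it in pair 2. MT-ND1 and MT-ND6 did the opposite: MT-ND6 had 121 and 104 CPM in the invasive clones and 112 and 129 CPM in the controls, with a log2 fold change of -0.12 ± 0.12, the lowest of the 13. In complex V, MT-ATP6 had 1729 and 1757 CPM in the invasive clones, between the 1882 and 1580 CPM of the controls. MT-ATP8 had 260 and 329 CPM in the invasive clones and 242 and 291 CPM in the controls.

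Complex II, succinate dehydrogenase, had its catalytic subunits on opposite sides of the controls. SDHA (ENSG00000073578, chromosome 5), the flavoprotein that oxidises succinate, had 173 and 156 CPM in invasive clones 1 and 2 and 146 and 115 CPM in controls 1 and 2. Both invasive clones lay above both controls. SDHB (chromosome 1), the iron-sulfur subunit bound to SDHA, had 115 and 117 CPM in the invasive clones and 129 and 134 CPM in the controls. Both invasive clones lay below both controls. The log2 fold changes were 0.33 ± 0.10 for SDHA (adjusted p 0.191) and -0.20 ± 0.09 for SDHB (adjusted p 0.309, both edgeR), and neither passed. With each library left out in turn, the SDHA value ran from 0.15 (without control 2) to 0.52 (without control 1), and the SDHB value from -0.22 to -0.19. The ratio of SDHA to SDHB CPM was 1.51 and 1.34 in the invasive clones, against 1.13 and 0.85 in the controls, so log2 differences of 0.41 (pair 1) and 0.65 (pair 2). The ratio is not per length, so it compares libraries and not the genes' levels, and it was chosen after its values were seen.

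SDHC and SDHD anchor the enzyme in the membrane and bind ubiquinone. SDHC had 136 and 122 CPM in the invasive clones, overlapping 119 and 127 CPM in the controls. SDHD had 33.4 and 37.2 CPM in the invasive clones, overlapping 33.8 and 35.6 CPM in the controls. SDHAF1, which helps insert the iron-sulfur clusters of SDHB, had the highest fitted change of all members, 0.42 ± 0.20 on the log2 scale (adjusted p 0.319, edgeR), at only 7.89 and 9.98 CPM in the invasive clones and 5.84 and 7.38 CPM in the controls. SDHA has transcribed copies elsewhere in the genome: SDHAP1 had 7.18 and 5.78 CPM in the invasive clones and 6.79 and 5.31 CPM in the controls, a small fraction of SDHA.

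**Figure D3:**
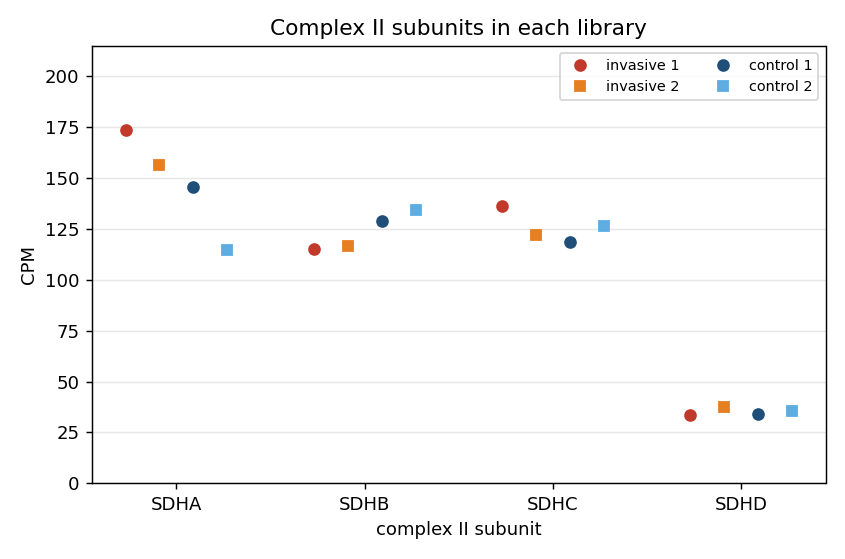
CPM of the 4 complex II subunits in each library, invasive clones left of controls. The invasive clones lie above both controls for SDHA (173 and 156 against 146 and 115) and below both for SDHB (115 and 117 against 129 and 134), and overlap them for SDHC and SDHD.

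The start regions of SDHA and SDHB are printed because they differ in the motif matches they hold. Each window runs from 250 bases before to 50 bases after the RefSeq start (GRCh38.p14), 5′ to 3′ on the gene's strand, with matches to 4 short motifs in capitals. Those motifs, searched on both strands, were NRF1 (GCGCATGC), GABP (CCGGAAG), YY1 (AAGATGGC) and the estrogen-related receptors (TCAAGGTCA), factors known for their sites at nuclear genes of respiration. SDHA lies at chr5:218070-218369 (plus strand) and SDHB at chr1:17053983-17054282 (minus strand):
SDHA: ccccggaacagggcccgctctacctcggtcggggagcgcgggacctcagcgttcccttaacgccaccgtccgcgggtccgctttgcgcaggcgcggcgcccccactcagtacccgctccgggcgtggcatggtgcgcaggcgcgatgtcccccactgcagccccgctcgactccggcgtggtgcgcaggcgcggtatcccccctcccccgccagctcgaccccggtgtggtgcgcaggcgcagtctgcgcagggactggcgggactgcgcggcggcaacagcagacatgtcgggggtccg
SDHB: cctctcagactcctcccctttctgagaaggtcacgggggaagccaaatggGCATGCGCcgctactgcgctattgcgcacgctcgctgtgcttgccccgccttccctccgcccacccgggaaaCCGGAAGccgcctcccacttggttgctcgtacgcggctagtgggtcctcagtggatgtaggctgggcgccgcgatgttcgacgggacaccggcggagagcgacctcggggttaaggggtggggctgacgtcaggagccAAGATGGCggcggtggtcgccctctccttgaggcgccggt
The SDHB window held 1 NRF1, 1 GABP and 1 YY1 match, in that order, and the SDHA window held none of the 4. No match says only that these letters are not in this window.

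Of the 96 nuclear members, 75 matched a RefSeq window, and a gene was counted if any of its windows held the motif. The NRF1 motif was in 17 of the 75 (22.7%), against 6.39% of the 10654 tested genes with a window and 3.68% of all 27305 genes with one. The YY1 motif was in 16.0% of members, 6.49% of tested genes and 3.52% of all genes. The GABP motif was in 29.3% of members, 22.0% of tested genes and 12.2% of all genes, and the estrogen-related receptor motif was in 1 member. Members with an NRF1 match had a median log2 fold change of -0.10 (17 tested), against -0.03 in those without one (54 tested). For GABP the order was the other way, -0.031 with a match (22 tested) and -0.043 without (49 tested). For YY1 the medians were -0.055 with a match (11 tested) and -0.032 without (60 tested). Whether motif content is related to the fold changes was not tested. A match is a description of the sequence and not a site.

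In complex I, the 36 tested nuclear subunits divided between the directions. In both pairs, 10 were lower in the invasive clone (29.3% of all genes) and 12 higher (36.0% of all genes). The summed level of the nuclear subunits differed by -0.02% in pair 1 and -3.13% in pair 2. The lowest fold change among those averaging at least 10 CPM was that of NDUFA5, an accessory subunit. It had 94.7 and 104 CPM in the invasive clones and 121 and 119 CPM in the controls, with no overlap and a log2 fold change of -0.29 ± 0.10 (adjusted p 0.214, edgeR). NDUFAB1, the mitochondrial acyl carrier protein, had 57.0 and 71.2 CPM in the invasive clones and 69.6 and 84.9 CPM in the controls. It was lower within each pair, but the groups overlapped. The accessory subunits of the membrane arm NDUFB9 (-0.29 ± 0.09) and NDUFB5 (-0.26 ± 0.09 on the log2 scale) lay below both controls in both invasive clones. The highest fold changes were those of NDUFA2, an accessory subunit of the matrix arm, and NDUFS8, an iron-sulfur core subunit. NDUFA2 had 54.4 and 46.6 CPM in the invasive clones and 43.0 and 43.5 CPM in the controls (0.20 ± 0.11). NDUFS8 had 149 and 139 CPM against 125 and 123 (0.19 ± 0.09).

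The nuclear core subunits of complex I carry the NADH-binding flavin and the iron-sulfur clusters. NDUFV1, which binds NADH, had 195 and 181 CPM in the invasive clones, above the 169 and 161 CPM of the controls. NDUFS7 and NDUFS8 likewise did not overlap, while NDUFS1, the largest core subunit, had 191 and 166 CPM in the invasive clones and 189 and 200 CPM in the controls. NDUFV2, also a core subunit, had only 0.71 and 0.65 CPM in the invasive clones and 0.51 and 1.49 CPM in the controls. A same-strand gene covers 28.4% of its exonic bases in GENCODE v29, and it has a processed copy, NDUFV2P1, with 39 to 73 counts, so its level and its fold change are uncertain. Like NDUFV2, NDUFA7 (3 to 6 counts a library) is overlapped by a same-strand gene, over 32.3% of its exonic bases. Such overlap was not particular to genes with few counts. It was 33.8% for NDUFB8 (14.2 to 17.7 CPM) and 34.5% for COX8A of complex IV (117 to 131 CPM).

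Of the 8 complex I assembly factors, 5 were lower in both pairs with no overlap between groups. NDUFAF2 had 16.7 and 22.3 CPM in the invasive clones and 22.7 and 25.8 CPM in the controls (-0.35 ± 0.14 on the log2 scale), and NDUFAF4 had 27.3 and 26.6 CPM against 33.3 and 33.0 (-0.32 ± 0.11). NDUFAF1 went the other way within each pair, at 18.0 and 20.5 CPM in the invasive clones and 15.8 and 18.1 CPM in the controls. With 8 genes, and 19.7% of all genes below both controls, this describes these factors and is not a test of them.

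**Figure D4:**
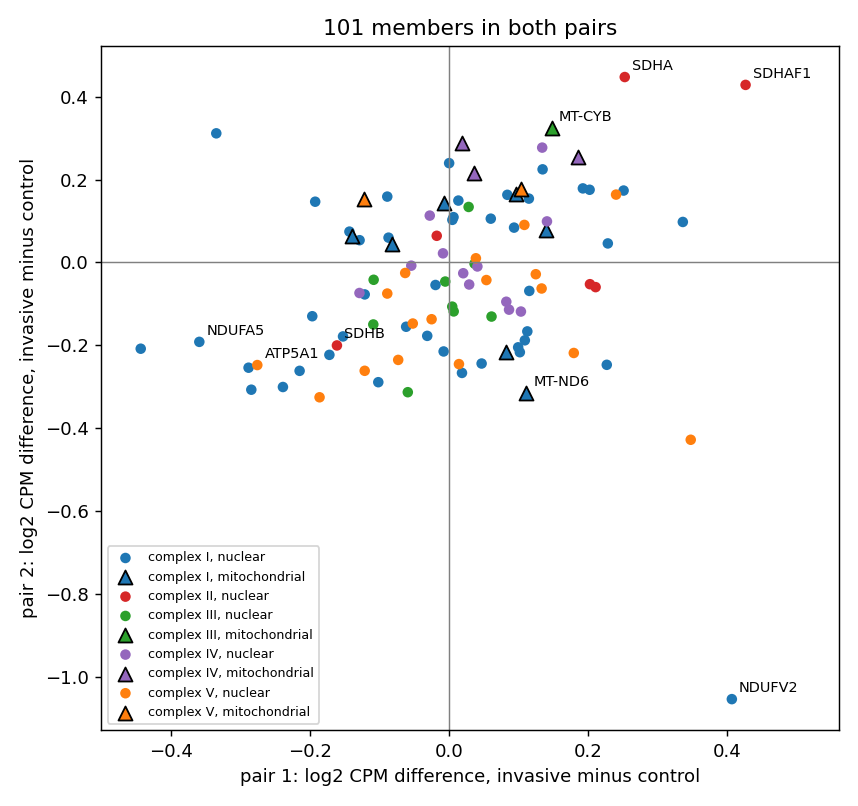
Difference of log2 CPM, invasive minus control, in pair 1 (horizontal) and pair 2 (vertical) for the 101 tested members, coloured by complex, with triangles for mitochondrial genes. SDHA and SDHAF1 are high in both pairs, NDUFA5, SDHB and ATP5A1 low in both, and no mitochondrial gene lies at lower left.

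Members' differences in one pair were only loosely related to those in the other. The Spearman correlation between pairs was 0.33 over the 88 nuclear members, beside 0.40 over all genes tested, a description across genes that share their libraries. The fold changes were related to base composition: their Spearman correlation with the GC content of the principal transcript was 0.35 over the nuclear members and 0.23 over 14095 genes. The part that base composition has in these differences was not tested.

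In complex III, 8 of the 9 tested nuclear genes had a negative fitted fold change (49.2% of all genes tested did), and 4 were lower in both pairs (29.3% of all genes). Their sum differed by -1.10% in pair 1 and by -7.09% in pair 2, while the mitochondrial MT-CYB differed by 10.8% and 25.2%. UQCRC2, one of the matrix-facing core proteins, had 200 and 183 CPM in the invasive clones and 208 and 228 CPM in the controls, with a log2 fold change of -0.20 ± 0.11 (adjusted p 0.355, edgeR). UQCRB, a small ubiquinone-binding subunit, had 159 and 165 CPM in the invasive clones and 172 and 183 CPM in the controls. Both had their invasive clones below both controls. UQCRC1, the partner of UQCRC2, had 220 and 186 CPM in the invasive clones and 214 and 187 CPM in the controls. The Rieske iron-sulfur protein UQCRFS1 had 93.0 and 88.6 against 89.2 and 97.0, so both genes overlapped. UQCRQ was the only one of the 9 above 0 (0.06 ± 0.10).

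The nuclear subunits of complex IV differed little: all 11 tested lay between -0.12 and 0.19 in log2 fold change. NDUFA4, now counted as a subunit of this complex, was the highest, with 201 and 230 CPM in the invasive clones and 183 and 190 CPM in the controls (0.19 ± 0.10, adjusted p 0.379, edgeR). COX8A, the ubiquitous form of subunit VIII, had 131 and 125 CPM in the invasive clones and 119 and 117 CPM in the controls. NDUFA4 and COX8A were the only members of the 11 without overlap between groups. A same-strand gene covers 34.5% of the exonic bases of COX8A, so its counts are uncertain to that extent. COX6C was the lowest (-0.12 ± 0.09), with 78.9 and 87.3 CPM in the invasive clones and 86.3 and 91.9 CPM in the controls. COX5A was next (-0.05 ± 0.09), at 94.8 and 107 CPM against 98.5 and 107. The summed nuclear subunits differed by 2.87% and 1.84%, and the 3 mitochondrial ones by 5.27% in pair 1 and 19.9% in pair 2.

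Several complex IV subunits exist as isoforms made from separate genes, and where both forms were listed the broadly expressed one was the abundant one. COX4I1 had between 238 and 250 CPM, COX6A1 between 92.5 and 100.1 and COX6B1 between 131 and 150 over the 4 libraries, while the testis-type COX6B2 had at most 0.06 CPM. COX7A2 had 68.6 and 70.1 CPM in the invasive clones and 67.2 and 72.7 CPM in the controls, and the heart-type COX7A1 was listed at 0 in pair 2 and not listed in pair 1. COX8C was at 0 in 3 libraries and had 1 count in the other. COX7A2L, a supercomplex factor related to COX7A2, had 109 CPM in each invasive clone and 103 and 118 CPM in the controls. NDUFA4L2, the hypoxia-induced relative of NDUFA4, had 0.45 and 0.51 CPM in the invasive clones and 0.39 and 0.19 CPM in the controls, too low to be tested. COX4I2 and COX6A2 were not listed under these names, so COX4I1 and COX6A1 could not be compared with them.

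In complex V, 8 of the 16 tested nuclear genes were lower in both pairs (29.3% of all genes) and 3 were higher (36.0% of all genes). The nuclear genes of this complex summed to 3188 and 2881 CPM in the invasive clones, against 3341 and 3121 CPM in the controls. The catalytic F1 head is made of alpha, beta, gamma, delta and epsilon subunits. ATP5A1, the alpha subunit, had 384 and 348 CPM in the invasive clones and 464 and 413 CPM in the controls, with no overlap and a log2 fold change of -0.28 ± 0.10 (adjusted p 0.224, edgeR). ATP5B, the beta subunit, with the highest level per kilobase of the nuclear members (499 CPM per kilobase on average), had 957 and 850 CPM in the invasive clones, overlapping the 999.8 and 866 CPM of the controls. Alpha and beta stand in equal number in the enzyme; the ratio of their CPM, which is not per length and compares libraries only, was 0.40 and 0.41 in the invasive clones, against 0.46 and 0.48 in the controls. ATP5C1 (gamma), of the central stalk, had 186 and 152 CPM in the invasive clones and 196 and 180 CPM in the controls (-0.17 ± 0.10). It was lower within each pair, like ATP5A1 and ATP5B, but the groups overlapped. The small subunits of the central stalk were higher within each pair. ATP5D (delta) had 62.1 and 66.4 CPM in the invasive clones and 52.5 and 59.2 CPM in the controls (0.18 ± 0.10), with no overlap. ATP5E (epsilon) had 275 and 304 CPM against 255 and 285 (0.08 ± 0.10), and its groups overlapped.

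The outer stalk of complex V holds the head still, and its subunit b gene had one of the lowest fold changes. ATP5F1, which encodes it, had 323 and 267 CPM in the invasive clones and 368 and 334 CPM in the controls, -0.27 ± 0.10 on the log2 scale (adjusted p 0.229, edgeR). ATP5H, subunit d, had 120.0 and 108 CPM in the invasive clones and 131 and 130 CPM in the controls. Neither overlapped, while ATP5O, the protein linking the stalk to the head, did (45.9 and 44.3 CPM against 44.2 and 45.6). ATP5G1, ATP5G2 and ATP5G3 encode the same mature c subunit of the membrane ring. ATP5G3 supplied 45.8% and 47.5% of their summed CPM in the invasive clones, against 44.9% and 49.3% in the controls, so the mix was similar in all 4 libraries. Their fold changes were -0.13, -0.12 and -0.10 for ATP5G3, ATP5G2 and ATP5G1.

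**Figure D5:**
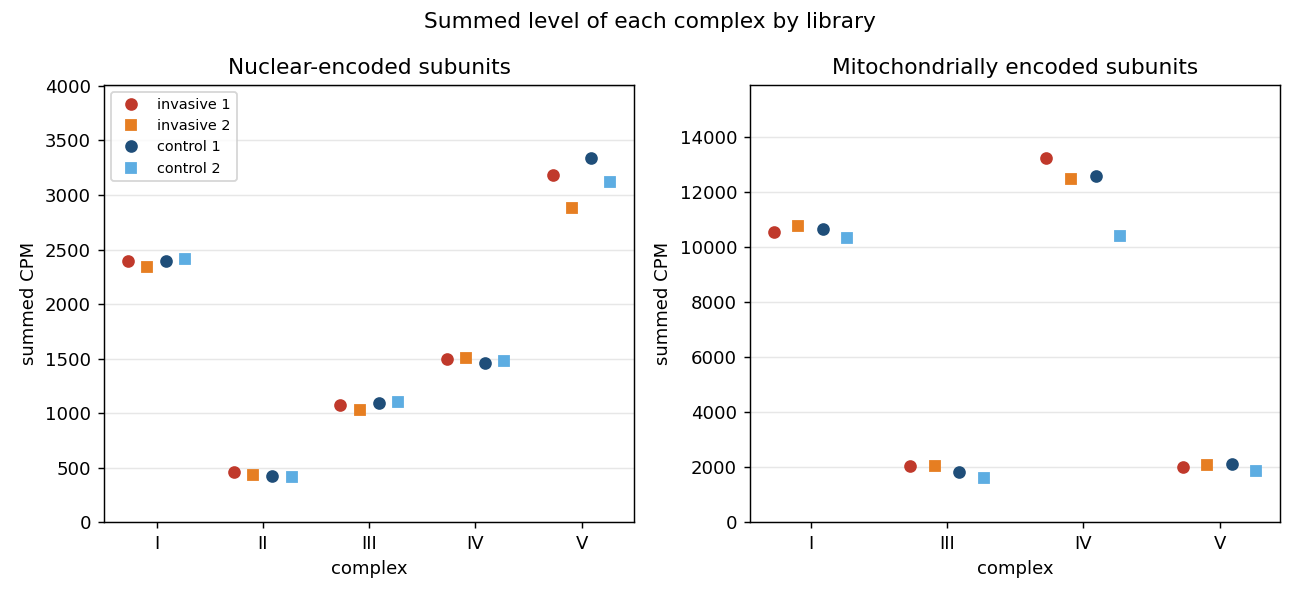
Summed CPM of the nuclear-encoded (left) and mitochondrially encoded (right) subunit genes of each complex in the 4 libraries, invasive clones left of controls, each axis from 0. For complex IV the mitochondrial sum of control 2 (10415) stands below the other libraries (12486 to 13240).

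Genes around the complexes also gave 0 calls in each of 5 lists. Of 25 genes for mitochondrial DNA transcription, replication and RNA handling, 20 were lower in both pairs (29.3% of all genes) and 4 higher (36.0%), with a median log2 fold change of -0.18. PNPT1, the mitochondrial polynucleotide phosphorylase, had 44.9 and 40.9 CPM in the invasive clones and 63.6 and 64.6 CPM in the controls (-0.60 ± 0.10, adjusted p 0.093, edgeR). PRORP, the protein-only RNase P subunit listed as KIAA0391, was the highest of that list at 0.19. Of 32 assembly factors outside the name rule, 19 were lower in both pairs (29.3% of all genes) and 0 higher (36.0%), with a median of -0.15. COA6, a copper-delivery factor for complex IV, was lowest at -0.51 ± 0.16. UQCC2, a complex III assembly factor, was the highest at 0.10.

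Over all genes tested, 29.3% were lower and 36.0% higher in both pairs. Of 27 genes of the citric acid cycle and pyruvate dehydrogenase, 11 were lower and 8 higher in both pairs, with a median of -0.07. PDK4, a kinase that switches off pyruvate dehydrogenase, was highest (1.08 ± 0.38 on the log2 scale) at 2.52 and 1.66 CPM in the invasive clones and 1.40 and 0.58 CPM in the controls. IDH3A, a catalytic subunit of the NAD-dependent isocitrate dehydrogenase, was lowest (-0.37 ± 0.09, adjusted p 0.136, edgeR), with 101 and 99.5 CPM in the invasive clones and 127 and 129 CPM in the controls. Among 18 regulators of mitochondrial biogenesis, MYC was lowest (-0.39 ± 0.10) and PPARGC1A, the PGC-1alpha coactivator, highest (0.41 ± 0.19), and 7 were lower and 3 higher in both pairs. Among 12 electron carriers and subunits outside the name rule, DHODH, the dehydrogenase of pyrimidine synthesis, was lowest at -0.39 ± 0.17 and HIGD2A highest at 0.17, with 6 lower and 5 higher in both pairs. None of these genes passed the threshold.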

How the data were processed

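The 4 U87MG libraries, 2 pairs of 1 invasive clone and 1 control, were analysed from the whole-number read counts per Ensembl gene that the authors deposited without normalization. The submitters' processing notes name GRCh38 and, with no role, HTSeq, DESeq2, Bowtie, TopHat2 2.0.12 and bcl2fastq 1.8.4. The sources used here do not give the strand setting of the counting. The authors also deposited a normalized score per gene, rounded to whole numbers, whose method is not stated; it served in 1 alternative, over 97 members.

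CPM was each count over the library total; log2 differences within a pair used a prior count of 2 and carry no test. The 14231 genes passing edgeR's filterByExpr (minimum count 10, minimum total 15) of 29387 listed in all 4 libraries were fitted with edgeR 4.0.16 (R 4.3.3): TMM factors, robust quasi-likelihood F test, pair as a block, Benjamini-Hochberg adjustment over all genes tested, threshold 0.05. The standard error is the log2 fold change over the square root of F. The design text states the pairing; the pair 1 minus pair 2 differences of invasive and control libraries correlated at 0.283 across genes. The biological coefficient of variation was 12.2%. Totals of 13829871 to 17817756 counts put 3 counts at 0.168 to 0.217 CPM. Alternatives were the fit without the block, DESeq2 1.42.0, its size factors in edgeR, no filter, mitochondrial genes left out, and each library left out.

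Named genes were all mitochondrial members, any called member, the 2 highest and 2 lowest fold changes of each complex's nuclear subunits averaging at least 10 CPM, the isoform sets, and the called genes, or else the highest and lowest, of each further list. Other genes were named after their values were seen. The members and lists were chosen with earlier results of these data known. Transcript lengths, GC content and overlaps came from GENCODE v29, and start windows from RefSeq (GRCh38.p14).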

Additional observations from a re-analysis of the deposited data

How the results depend on the processing

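All 10 fits called 0 members, and the smallest adjusted p of any member ranged from 0.060 (NDUFA5, no filter on low counts) to 0.751 (ATP5A1, without control 2). Over all genes, 34 were called higher and 5 lower in the invasive clones with the pair as a block; without the block, 2 and 0 were. DESeq2's size factors in edgeR gave 80 and 9, no filter on low counts 760 and 693, and DESeq2 with the block 142 and 29. Leaving out each library in turn, without the block, gave 4 to 83 higher and 0 to 87 lower, the lowest higher count without control 2 and the highest without control 1, and moved the median log2 fold change of the mitochondrial members from -0.019 to 0.086. The log2 change of the nuclear sum then ranged from -0.074 to -0.0034. Within pair 1 the nuclear median was 0.0099, and within pair 2 the mitochondrial median was 0.15. Among named members, none of them past the threshold, 19 took the other sign in some fit. Their log2 fold changes with each library left out ran, for the mitochondrial genes, over MT-ND1 -0.23 to 0.041, MT-ND2 -0.095 to 0.0034, MT-ND4 -0.00030 to 0.095, MT-ND5 -0.14 to 0.022, MT-CO1 -0.019 to 0.28, MT-CO2 -0.055 to 0.27, MT-ATP6 -0.14 to 0.13, MT-ATP8 -0.059 to 0.28, and for the nuclear genes over SDHD -0.079 to 0.073, SDHC -0.034 to 0.13, UQCRC1 -0.13 to 0.11, COX5A -0.14 to 0.024, COX4I1 -0.063 to 0.032, COX6A1 -0.038 to 0.070, COX6B1 -0.11 to 0.083, COX7A2 -0.078 to 0.010, COX7A2L -0.12 to 0.050, ATP5G1 -0.27 to 0.044, ATP5G2 -0.31 to 0.046. SDHD was also -0.018 with no filter and -0.00050 with mitochondrial genes left out. The causes were not tested. With 2 pairs the model had 1 residual degree of freedom, which limits what it can call.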

Other observations

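The ribosomal RNAs of the mitochondrial genome, which are not members of the complexes, had larger fold changes than any mitochondrial message. MT-RNR1, the small ribosomal RNA, had 459 and 520 CPM in invasive clones 1 and 2 and 296 and 339 CPM in controls 1 and 2, a log2 fold change of 0.61 ± 0.10 (SE) with an adjusted p of 0.084 (edgeR). MT-RNR2, the large ribosomal RNA, had 4516 and 4910 CPM in the invasive clones and 3012 and 3203 CPM in the controls (0.58 ± 0.11, adjusted p 0.094, edgeR). Both invasive clones lay above both controls for each gene, and neither passed the threshold. The libraries were made from RNA selected with oligo-dT.

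IDH2, the NADP-dependent mitochondrial isocitrate dehydrogenase, was singled out after its values were seen. It had 66.5 and 84.2 CPM in the invasive clones and 41.5 and 39.6 CPM in the controls, a log2 fold change of 0.87 ± 0.13 (adjusted p 0.076, edgeR). TFAM, which packages mitochondrial DNA and starts its transcription, had 55.3 and 47.9 CPM in the invasive clones and 66.6 and 75.0 CPM in the controls (-0.47 ± 0.12, adjusted p 0.136, edgeR), also singled out after its values were seen.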
